A study of Rattus norvegicus with 6 samples.

Results

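Predicted rat noncoding transcripts of RefSeq, whose accessions begin with XR_, made up 1290 of the 6711 lncRNA probes on an array of the rat hippocampus. They were chosen by the probe's name alone, as lncRNA probes of the array's own numbering whose name begins with an XR_ accession. The array held 1291 such probes, and XR_147166.1 was left out because the study had picked it for quantitative PCR. The other 5420 lncRNA probes were 1683 named by rat Ensembl transcripts, 3356 named by a match to a mouse transcript and 381 named by curated RefSeq transcripts, whose accessions begin with NR_. All 6716 probes with values, the lncRNA probes and 5 of another kind, entered the tests between groups.

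The tissue was the hippocampus of adult Sprague-Dawley rats. In 3 samples it was taken 7 days after transection of the fimbria-fornix (FF), called denervated here, and 3 samples were normal, untreated hippocampus. The study describes the tissue as coming from paired rats of both sexes, but the labels do not say which samples came from which rat. Each sample is whole hippocampal tissue, so fewer cells of a type and less RNA per cell cannot be told apart. None of 23 mRNA markers of neurons, glia and other cells had a probe by name, so the tissue label was not checked against markers.

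RefSeq gives the XR_ prefix to noncoding transcripts that its automated annotation models from aligned sequence, and the NR_ prefix to curated ones. A predicted record may be revised, which raises the number after the point, or withdrawn, and most such lncRNAs have no known function. Many lncRNAs are restricted to certain tissues or cell types, and in the hippocampus some take part in gene regulation in neurons and neural stem cells. The FF is the fibre tract that carries, among other fibres, the cholinergic input from the basal forebrain to the hippocampus.

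Little can be said of where these transcripts lie. The array table gives the XR probes no coordinates, and the current rat RefSeq annotation (GRCr8) still held only 16 of the 1290 accessions (1.24%), compared with 372 of the 381 NR accessions. Of the 16, RefSeq calls 15 lncRNA genes and 1 protein coding, on 11 chromosomes, all with placeholder symbols. A RefSeq promoter sequence was available for 11 of the 16, and the few shown here do not stand for the XR records in general. Shown are the 250 bases before and 50 after the start for 3 genes with a single listed start, chosen after their values were seen as the one with the lowest level, the one with the highest level and the one with the widest range above 5. They are written 5′ to 3′ on the gene's strand, with each CG pair in capitals. The current gene model can start elsewhere than the version on the array.
LOC100911946: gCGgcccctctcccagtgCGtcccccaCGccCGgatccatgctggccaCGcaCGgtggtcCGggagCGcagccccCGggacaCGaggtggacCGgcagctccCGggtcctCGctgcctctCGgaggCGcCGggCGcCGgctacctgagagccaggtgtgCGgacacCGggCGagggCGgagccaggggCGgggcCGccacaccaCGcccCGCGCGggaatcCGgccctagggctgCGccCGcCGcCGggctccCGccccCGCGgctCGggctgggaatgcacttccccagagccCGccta
LOC100911506: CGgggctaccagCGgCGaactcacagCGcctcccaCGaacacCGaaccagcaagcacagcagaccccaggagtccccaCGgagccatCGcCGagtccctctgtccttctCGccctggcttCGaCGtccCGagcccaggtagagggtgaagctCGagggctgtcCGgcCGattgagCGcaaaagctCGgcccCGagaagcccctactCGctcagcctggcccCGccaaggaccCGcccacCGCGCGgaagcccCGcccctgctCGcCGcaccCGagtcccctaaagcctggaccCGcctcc
LOC100912002: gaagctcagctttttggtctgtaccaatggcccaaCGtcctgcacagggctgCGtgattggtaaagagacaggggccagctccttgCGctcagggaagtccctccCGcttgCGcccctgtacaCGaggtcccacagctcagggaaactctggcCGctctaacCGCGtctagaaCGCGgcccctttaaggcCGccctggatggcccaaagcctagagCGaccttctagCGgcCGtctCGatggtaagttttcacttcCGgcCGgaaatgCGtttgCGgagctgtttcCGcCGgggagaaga

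The window of LOC100911946 (chr10:53109942-53110241, plus strand) held 38 CG pairs and was 78.3% G and C. The window of LOC100911506 (chr14:44672157-44672456, minus strand) held 30 CG pairs and was 70.0% G and C. The window of LOC100912002 (chr10:102774483-102774782, plus strand) held 22 CG pairs and was 60.3% G and C. All lay above the median of 7 CG pairs over the 27457 rat promoters of the same length. As many CG pairs or more were found in 4.53% of all promoters for the first, 11.1% for the second and 22.7% for the last. TATAAA, searched on both strands, was in none of the 3 windows and in 14.3% of all promoters. CCAAT, also on both strands, was found only in that of LOC100912002, and in 37.7% of all promoters.

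The probes of these 3 genes covered much of the array's scale, on which all values are log2 normalized intensity. XR_146185.1, an early version of the transcript now at LOC100911946 (chr10:53110192-53111694), had values of -0.75, -0.69 and -0.29 in denervated 1 to 3 and of 5.36, -0.22 and 2.39 in normal 1 to 3. XR_146284.1 at LOC100911506 (chr14:44668984-44672206) had 12.03, 11.19 and 12.07 in the denervated and 11.62, 12.35 and 12.09 in the normal samples. XR_146205.1 at LOC100912002 (chr10:102774733-102776874) had 10.74, 10.87 and 8.18 in the denervated and 10.46, 7.07 and 10.13 in the normal samples. The groups overlapped for all 3, and the low values of the last lay in denervated 3 and normal 2. The 16 members still annotated had a median level of 9.48, compared with 9.91 for the members that were not matched. LOC100911946 was the only one of the 16 with a value under 5.

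Normal 2 stood apart from the other normal samples, and denervated 3 from denervated 2 but not from denervated 1. Over the 1290 members, Pearson's r was 0.87 between denervated 3 and normal 2, but 0.72 between normal 1 and normal 2, 0.77 between normal 2 and normal 3, and 0.78 between denervated 2 and denervated 3. Denervated 1 had an r of 0.86 with denervated 3 and of 0.84 with denervated 2. Normal 1 and normal 3 had an r of 0.93, and each had an r of 0.87 or 0.88 with denervated 2. These correlations are across probes, which are not replicates and share the array. Array medians ran from 10.17 to 10.19 and every maximum was 15.99, as the authors' scaling left them. The labels mention a former and a latter sample in the raw data of an array, without saying which samples shared one. RNA integrity, in the study's quality table, was higher in every denervated than in every normal sample, so its part cannot be told apart from that of the transection. Class differences and counts of calls are therefore also given without denervated 3 and normal 2, and differences of single members where a call ends.

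The XR probes were dimmer than the other lncRNA probes in every sample. Their mean level over the 6 samples had a median of 9.90, with 5% of members below 4.77 and 5% above 13.15, whereas the median of the other lncRNA probes was 10.22. By sample, the XR median was 9.91, 9.97 and 9.98 in denervated 1 to 3 and 9.95, 9.98 and 9.99 in normal 1 to 3. The median of the other lncRNA probes lay between 10.21 and 10.25 in all 6. The difference within a sample was -0.27 ± 0.04 (SD, n = 6), with a range from -0.33 to -0.24. An exact two-sided sign-flip permutation test over the 6 samples gave p = 0.03125, the smallest it can give, and 0.0357 after adjustment over 8 comparisons between classes. The same probes sit on every array, so this p and the later sign-flip ones measure how steady a difference was between arrays. They do not measure whether the classes would differ with other probes. Without denervated 3 and normal 2 the difference was -0.28 (exact permutation p = 0.125, the smallest that 4 samples allow). Probes differ in how well they bind, so these are differences in signal and not in amounts of RNA.

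The order of the classes was the same in all 6 samples. The XR median lay below that of the Ensembl probes by -0.78 ± 0.04 (SD, n = 6) and below that of the mouse-matched probes by -0.07 ± 0.03. It lay above that of the NR probes by 0.13 ± 0.06. Each of these had the same sign in 6 of 6 samples, and each exact sign-flip permutation p was 0.03125. The curated class was thus the dimmest, with a median level of 9.80, next to 9.90 for XR, 9.99 for mouse-matched and 10.73 for Ensembl probes. Among the 200 brightest lncRNA probes were 34 members (17.0%), while members were 19.2% of all lncRNA probes.

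**Figure D1:**
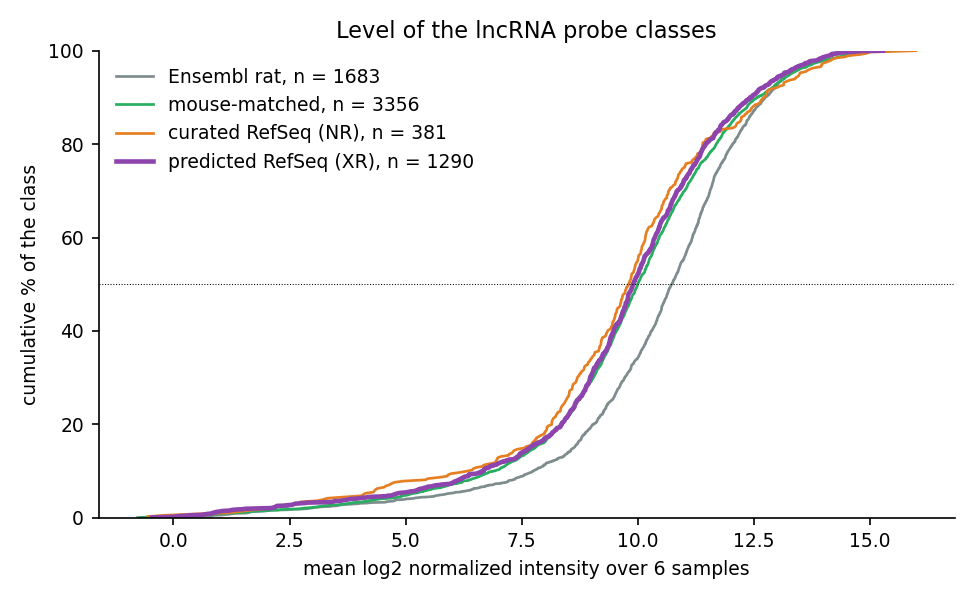
Cumulative share of the probes of each class of lncRNA, in percent (vertical axis), by mean log2 normalized intensity over the 6 samples (horizontal axis), with 1 line for each class and a dotted line at the median. The XR line crosses the median at 9.90, between the NR line (9.80) and the mouse-matched line (9.99), and the Ensembl line lies to the right at 10.73.

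The brightest and dimmest members differed by nearly the whole scale of the array. XR_146287.1 was the brightest, with 15.65, 14.25 and 15.99 in the denervated and 15.21, 15.99 and 14.58 in the normal samples. No other member came within 0.01 of the highest value of an array, and XR_146287.1 did so in denervated 3 and normal 2, where its level may be a lower bound. The next brightest were XR_146435.1, XR_146334.1, XR_145897.1 and XR_147064.1, with mean levels from 14.39 to 14.78. XR_146752.1 was the dimmest, with all 6 values between -0.79 and -0.18. XR_146113.1, XR_147182.1, XR_146348.1 and XR_146164.1 followed with mean levels from -0.20 to 0.14. In each of these that followed, the highest value was that of denervated 1, at 1.54, 2.48, 2.76 and 2.96. No function is given for any of these 10 transcripts in the sources used here.

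A value under 5 was called dim. It is far below the array median and no detection call was used. Dim values made up 5.47% of the members' values and 4.59% of those of the other lncRNA probes, and values under 2 made up 3.45% and 2.83%. By sample, 56, 50 and 87 of the 1290 members were dim in denervated 1 to 3 (4.34%, 3.88% and 6.74%), and 67, 102 and 61 in normal 1 to 3 (5.19%, 7.91% and 4.73%). Denervated 3 and normal 2 had the most dim members, and the other lncRNA probes also had their largest shares there, at 5.98% and 6.01%.

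The dim share of the members exceeded that of the other lncRNA probes by 0.877 ± 0.501 percentage points (SD, n = 6), in 6 of 6 samples (exact sign-flip permutation p = 0.03125). The range was from 0.610 to 1.89 points, with the largest value in normal 2, and the mean was 0.651 without denervated 3 and normal 2. Against the Ensembl probes the excess was 1.62 points and against the mouse-matched probes 0.688 points, each in 6 of 6 samples. Against the NR probes the share was lower, by -0.747 points, in 5 of 6 samples (exact permutation p = 0.09375). Dim shares thus followed the order of the class medians, with 6.21% for NR, 4.78% for mouse-matched and 3.84% for Ensembl probes.

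**Figure D2:**
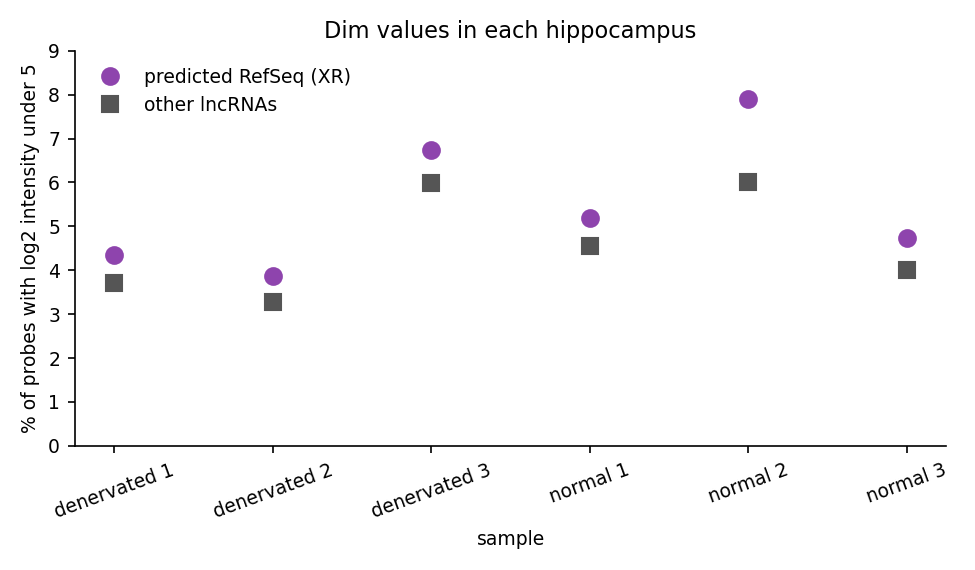
Share of probes under 5 on the log2 scale, in percent (vertical axis), in each of the 6 samples (horizontal axis), with circles for the XR probes and squares for all other lncRNA probes. The XR share lies above the other in every sample and is highest in normal 2 (7.91%) and denervated 3 (6.74%).

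Most dim members were dim in some samples only. Of the 1290, 1130 (87.6%) had no value under 5 and 160 (12.4%) had at least 1. Of these 160, 64 were dim in 1 sample, 31 in 2, 16 in 3, 15 in 4, 15 in 5 and 19 in all 6. The 19 were 1.47% of the members, next to 0.867% of the other lncRNA probes. Of the 64 dim in 1 sample, 31 were dim in normal 2, 12 in denervated 3, 10 in normal 1, 7 in denervated 1, 2 in denervated 2 and 2 in normal 3. Of the 31 dim in 2 samples, 11 were dim in denervated 3 and normal 2, a pair drawn from both groups, and no other pair had more than 4. No member was dim in all samples of 1 group and in none of the other.

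Members varied among samples slightly more than the other lncRNA probes. The SD within groups had a median of 0.577 over the members, with its middle 50% between 0.383 and 0.971, and of 0.541 over the other lncRNA probes. The medians were 0.558 for NR, 0.541 for Ensembl and 0.540 for mouse-matched probes. Spread falls with level, so the classes were also compared within 5 bins of equal size by mean level over all lncRNA probes, with limits at 8.49, 9.68, 10.63 and 11.76. From the dimmest bin to the brightest, the median SD of the members was 1.72, 0.575, 0.493, 0.442 and 0.427. That of the other lncRNA probes was 1.59, 0.551, 0.483, 0.482 and 0.407. The members thus had the larger spread in all bins but the one from 10.63 to 11.76. This did not hold against the Ensembl probes alone, whose median SD was 1.86, 0.599, 0.512, 0.517 and 0.444, above the members in every bin. NR probes lay below the members in every bin, and mouse-matched probes in all but the one from 10.63 to 11.76. Members were spread over the bins as 280, 290, 269, 234 and 217. The difference between the class medians was 0.036 and shrank to 0.013 without denervated 3 and normal 2, and among the upper 50% of probes by mean intensity it was -0.014. These are descriptions with no test.

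**Figure D3:**
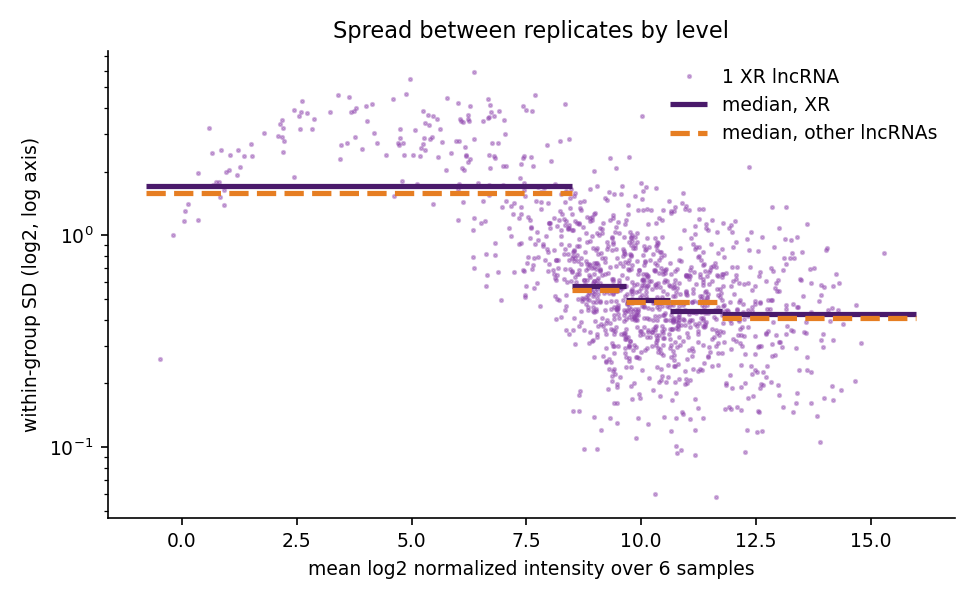
SD within groups on the log2 scale (vertical axis, logarithmic) against mean log2 normalized intensity (horizontal axis), with 1 point for each XR probe and lines at the median of each of the 5 bins for XR probes (solid) and the other lncRNA probes (dashed). The medians fall from 1.72 to 0.427 for XR probes and from 1.59 to 0.407 for the others.

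Some members were nearly constant over the 6 samples and others spanned most of the scale. Among the members above the median level, XR_145842.1 had the smallest SD over the 6 samples, 0.067 at a mean of 10.30, with 10.34, 10.25 and 10.20 in the denervated and 10.36, 10.28 and 10.36 in the normal samples. XR_146897.1, XR_146099.1, XR_146131.1 and XR_146196.1 followed with SDs from 0.078 to 0.094. XR_086050.3 had the largest SD, 5.32, with 7.14, 10.58 and -0.29 in the denervated and 10.48, -0.31 and 10.53 in the normal samples. It was thus above 10 in 3 samples, lower in denervated 1 and near the bottom of the scale in denervated 3 and normal 2. XR_085763.2, XR_147158.1 and XR_146232.1 were also below 0.3 in those samples, and XR_146353.1 had -0.28 in normal 2 and 6.04 in denervated 3. But XR_147158.1 was lowest in denervated 1, at -1.18, and XR_146232.1 was also low in normal 3, at -0.44. Normal 2 held the highest of the 6 values for 386 members (29.9%) and the lowest for 267 (20.7%), as denervated 2 did for 267. Among the other lncRNA probes normal 2 held the highest value for 28.1%.

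The class as a whole did not shift detectably with denervation. The XR median was 9.95 ± 0.04 in the denervated and 9.97 ± 0.02 in the normal hippocampus (SD, n = 3), a difference of -0.02 (exact permutation p = 0.6, where 0.1 is the smallest p that 3 samples against 3 allow). The median of the other lncRNA probes differed by 0.02 (exact permutation p = 0.1). The difference between these differences was -0.04 (exact permutation p = 0.3, adjusted p = 0.80 over the 8 comparisons). The dim share was 4.99 ± 1.54% in the denervated and 5.94 ± 1.72% in the normal samples (SD, n = 3, exact permutation p = 0.5).

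Single members differed between the groups by more than the class, mostly where values were dim. Denervated minus normal, 5% of the members differed by less than -0.88 and 5% by more than 1.61, and for the other lncRNA probes these limits were -0.90 and 1.37. A difference beyond 1 in size was seen in 160 members (12.4%), 108 higher and 52 lower after denervation, and in 650 of the other lncRNA probes (12.0%). Of the 108 and 52, 82 and 31 had at least 1 value under 5. Among the 1130 members with no dim value, 47 (4.16%) differed by more than 1, next to 4.78% of such probes among the others. The median size of the difference was 0.268 and 0.265 in these measured sets.

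**Figure D4:**
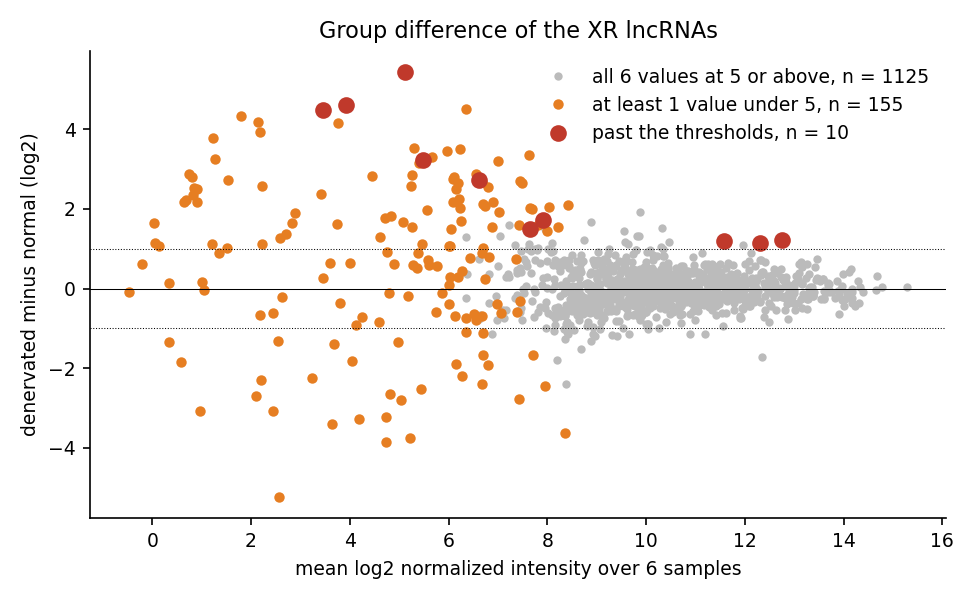
Difference between group means on the log2 scale, denervated minus normal (vertical axis), against mean log2 normalized intensity (horizontal axis) for the 1290 XR probes, 1 point each, in grey with all values at 5 or above, in orange with at least 1 value under 5, and in red past the thresholds of the methods, with dotted lines at 1 and -1. The scatter is widest among probes with a dim value, and the 10 red points all lie above 1.

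No member differed between the groups at an adjusted p under 0.05 in limma with Benjamini-Hochberg adjustment over all probes, and the lowest adjusted p of a member was 1.0. In all, 1 probe passed (0.0149%). At an unadjusted p under 0.05, 16 members passed in limma, 12 higher (0.930%, next to 1.46% of all probes) and 4 lower (0.310%, next to 0.506%). The count in limma was 72 without normal 2, 45 without denervated 3, 25 without denervated 2, 21 without normal 1, 11 without denervated 1 and 6 without normal 3. The shares over all probes were not computed for these counts, so they are not read as a result about the members. At the thresholds of the methods, a difference above 1 on the log2 scale with an unadjusted p under 0.05, 10 members were higher after denervation (0.775%) and 0 were lower. Over all probes 1.04% were higher and 0.298% lower, so the members' share was near the background. The share higher was 1.31% for NR, 1.72% for Ensembl and 0.745% for mouse-matched probes. Counts moved with single samples among the members and over all probes. Leaving out normal 2 gave 41 higher members (3.18%, next to 3.65% of all probes) and 16 lower (1.24%, next to 1.09%). Leaving out denervated 3 gave 31 higher (2.40%, next to 1.98%) and 9 lower (0.698%, next to 1.18%). The higher members were 6 (0.465%) when denervated 1, denervated 2 or normal 3 was left out, next to 0.581%, 0.864% and 0.819% of all probes, and 17 (1.32%, next to 1.1%) for normal 1. The lower members were 4 for denervated 1 (next to 0.328% of all probes), 15 for denervated 2 (next to 1.34%), 4 for normal 1 (next to 0.298%) and 0 for normal 3 (next to 0.0893%). Without both denervated 3 and normal 2, 56 members were higher (4.34%, next to 4.01% of all probes) and 16 lower (1.24%, next to 1.38%).

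The 3 brightest of the 10 stood above 10 in every sample, and their groups did not overlap. XR_146508.1 had 13.53, 13.54 and 13.01 in the denervated and 11.94, 12.77 and 11.70 in the normal samples, or 13.36 ± 0.31 and 12.14 ± 0.56 (SD, n = 3). All 3 denervated values were higher, with normal 2 the closest, and the difference was 1.22 (SE 0.39, limma unadjusted p = 0.020, adjusted p = 1.0), or 2.34-fold. XR_146100.1 had 11.68, 12.74 and 12.10 in the denervated and 11.00, 10.75 and 11.21 in the normal samples. Here the normal samples were the tighter group, and the difference was 1.18 (SE 0.37, unadjusted p = 0.018), or 2.27-fold. XR_146183.1 had 12.81, 13.43 and 12.42 in the denervated and 11.52, 12.09 and 11.63 in the normal samples. Denervated 3 lay closest to normal 2, and the difference was 1.14 (SE 0.37, unadjusted p = 0.021), or 2.21-fold.

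A further 2 of the 10 had all values above 5 at a lower level. XR_145875.1 had 8.72, 9.17 and 8.44 in the denervated and 8.20, 6.31 and 6.62 in the normal samples, with a difference of 1.73 (SE 0.57, limma unadjusted p = 0.022). Normal 1 was close to the denervated samples, whereas normal 2 and normal 3 were low. XR_146181.1 had 8.42, 8.50 and 8.24 in the denervated and 6.74, 7.98 and 5.97 in the normal samples, with a difference of 1.49 (SE 0.54, unadjusted p = 0.034). Its denervated values were close together and its normal values were not.

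The other 5 of the 10 had a dim value in at least 1 normal sample, and their differences were the largest. XR_086031.2 had 7.53, 8.65 and 7.32 in the denervated and 5.12, 0.79 and 1.26 in the normal samples, a difference of 5.44 (SE 1.20, limma unadjusted p = 0.0042). With values under 5 set to 5 the difference was 2.79. Its groups did not overlap, and normal 2 and normal 3 were far lower than normal 1. XR_007047.3 had 7.71, 6.71 and 4.28 in the denervated and 5.19, -0.81 and 0.47 in the normal samples, a difference of 4.62 (SE 1.74, unadjusted p = 0.038) that was 1.41 with the floor of 5. Denervated 3 lay below normal 1, so its groups overlapped, the only such case among the 10. XR_005436.3 had 5.11, 7.47 and 4.51 in the denervated and 4.50, -0.62 and -0.27 in the normal samples, a difference of 4.49 (SE 1.57, unadjusted p = 0.029) that was 0.86 with the floor. Denervated 3 and normal 1 were nearly equal. XR_145968.1 and XR_007917.3 were named after their values were seen. XR_145968.1 had 7.28, 6.53 and 7.45 in the denervated and 4.26, 1.77 and 5.56 in the normal samples, a difference of 3.23 (SE 0.97, unadjusted p = 0.016). XR_007917.3 had 7.85, 7.42 and 8.66 in the denervated and 5.72, 3.54 and 6.47 in the normal samples, a difference of 2.73 (SE 0.82, unadjusted p = 0.016). In both, normal 2 was the lowest sample and the groups did not overlap. Their differences were 1.90 and 2.25 with the floor, and 2.00 and 1.54 without denervated 3 and normal 2. With the floor XR_007047.3 (unadjusted p = 0.092) and XR_005436.3 (unadjusted p = 0.27) no longer passed the thresholds.

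Of the 10, 6 still passed the thresholds in limma without denervated 3 and normal 2, where 4.01% of all probes were higher, next to 1.04% with all samples. The other 4 were XR_145875.1 (1.54, unadjusted p = 0.075), XR_146100.1 (1.10, unadjusted p = 0.077), XR_007047.3 (4.38, unadjusted p = 0.065) and XR_005436.3 (4.18, unadjusted p = 0.094). All 10 kept their direction, on 2 samples in each group, which was fixed in advance for those whose groups did not overlap. Leaving out 1 other sample could end a call among the 6. The limma unadjusted p was 0.069 for XR_146508.1 and 0.088 for XR_146181.1 without normal 3. It was 0.071 for XR_146183.1 without normal 1 and 0.052 for XR_007917.3 without denervated 3. For XR_086031.2 and XR_145968.1 it stayed under 0.05 whichever sample was left out.

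**Figure D5:**
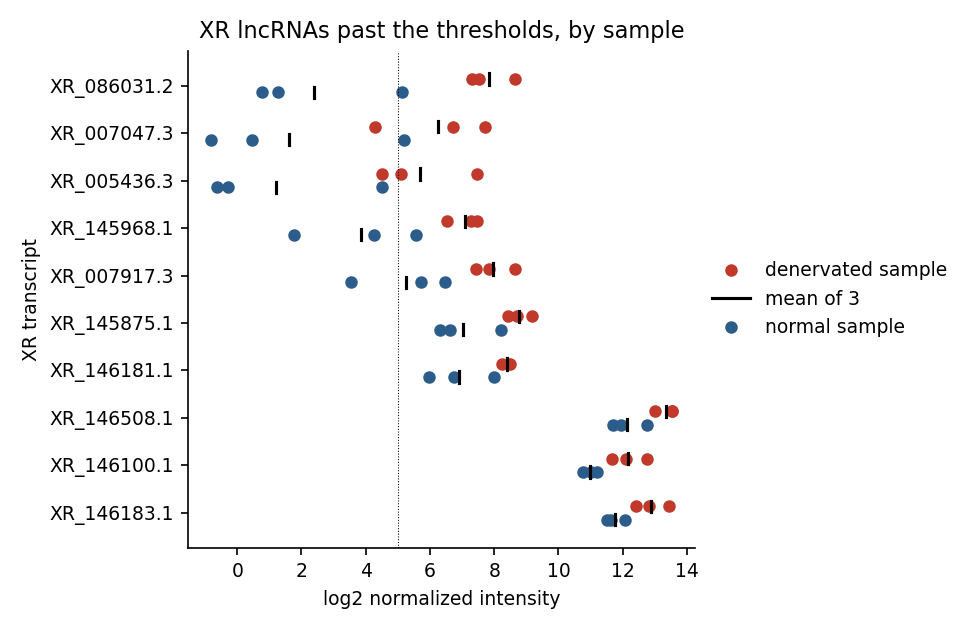
Log2 normalized intensity (horizontal axis) of the 10 XR transcripts past the thresholds of the methods (vertical axis), with red points for denervated and blue points for normal samples, black bars at the group means and a dotted line at 5. The denervated values lie above all normal values in 9 of the 10, and 5 of the 10 have a normal value under 5.

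Smaller differences in both directions passed the unadjusted p alone. XR_086151.1 had 9.96, 10.26 and 9.71 in the denervated and 10.82, 10.89 and 10.73 in the normal samples, a difference of -0.84 (limma unadjusted p = 0.023). XR_146160.1 had 9.70, 10.29 and 9.32 against 10.43, 10.94 and 10.89, a difference of -0.98 (unadjusted p = 0.035). In both, every denervated value was below every normal value. XR_146186.1 (-0.69, unadjusted p = 0.039) and XR_146494.1 (-0.63, unadjusted p = 0.04996) were also lower in all 3 denervated samples. XR_146056.1 (0.87, unadjusted p = 0.040) was higher without overlap, and XR_145905.1 (0.97, unadjusted p = 0.048) was higher with overlap. Without denervated 3 and normal 2, XR_146056.1 passed the unadjusted p and the other 5 did not, with unadjusted p-values from 0.080 to 0.18 in limma. These 6 were named after their values were seen.

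In 33 members every denervated value was above every normal value (2.56%, next to 3.37% of all probes), and in 33 every denervated value was below (2.56%, next to 2.53%). The median difference was 1.11 in the first set, next to 0.85 over all probes higher without overlap. It was 0.53 in size in the second, next to 0.56 over all probes lower without overlap. No value was dim in 24 of the first 33 and 31 of the second. Some large differences were not called. XR_006574.3 had -0.98, 1.54 and -0.67 in the denervated and 0.29, 7.96 and 7.33 in the normal samples, a difference of -5.23 (limma unadjusted p = 0.051) with normal 1 among the denervated values. XR_086180.1, a bright member, had 9.75, 14.47 and 10.23 in the denervated and 14.16, 11.56 and 13.90 in the normal samples. Denervated 2 was its highest sample and the groups overlapped.

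The number after the point in an accession counts revisions of the predicted record. Of the members, 1058 (82.0%) were first versions and 232 (18.0%) had version 2, 3 or 4. First versions had a median level of 9.93, a median SD within groups of 0.564 and 5.29% dim values. Revised records had 9.79, 0.654 and 6.25%. The median difference between groups was -0.03 for first versions and 0.10 for revised records, and 6 (0.567%) and 4 (1.72%) were past the thresholds, next to 1.04% higher over all probes. The revised records were thus slightly dimmer and more variable, as a description with no test.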

How the data were processed

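RNA of 3 denervated and 3 normal rat hippocampi was measured on 1-colour (Cy5) lncDETECT rat arrays. The values deposited by the authors are log2 normalized intensity. Arrays had been put on 1 scale by 50% scaling, repeated spots summarised by their median, and arrays of the same sample averaged. Background correction is not given in the sources used here. The deposited lists of changed lncRNAs hold the authors' ratios and p-values and were not used. 1 row of the second deposited value table had no counterpart in the first and was left out.

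Values were used as deposited. For each of the 6716 probes a linear model was fitted in limma 3.58.1 (R 4.3.3), with moderated variances and Benjamini-Hochberg adjustment over all of them. Class medians and shares were compared over samples with exact permutation tests, two-sided, whose smallest p is 0.1 for 3 samples against 3 and 0.03125 for 6 sign flips. The code was checked on simulated data. The rank product p of the methods, which resamples over probes, was not used. The study describes independent samples from paired rats, but the labels tie no sample to a rat, so p-values rest on how far these samples spread.

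Members and lists were chosen with earlier results of these data known. Named are the 5 members at each end of mean level, up to 5 in each direction past the thresholds with no overlap and no value under 5, up to 3 in each direction past them with a value under 5, and the 5 with the smallest SD above the median level. Members given gene symbols by RefSeq (GRCr8) were matched by accession without version. All 16 matches carry placeholder symbols, so none was named as a known gene, and members near each other could not be sought because the table gives these probes no coordinates. Other members named, and the promoters shown, were chosen after their values were seen. Figures were drawn with matplotlib 3.10.9.

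Alternatives were quantile normalization, equal array medians, the upper 50% of probes by mean intensity, values under 5 set to 5, an intensity trend, the Student t test of the study's general statistics, a block for the sample number, the second value table, the listed XR transcript kept in, leaving out each sample, and leaving out denervated 3 with normal 2.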

Additional observations from a re-analysis of the deposited data

How the results depend on the processing

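The 16 differences of named members kept their direction and side of the adjusted threshold under all alternatives run, with a lowest adjusted p of 0.134. They had been picked from these data for an unadjusted p under 0.05, most of them without overlap between the groups. Leaving out samples cannot reverse a difference without overlap, so this outcome was largely fixed in advance and is no further support. The 10 members higher at the thresholds of the methods became 4 among the upper 50% of probes by mean intensity (0.705%, next to 0.774% of those probes). Their count was 56 without denervated 3 and normal 2, and 6 to 41 without 1 sample, with the shares over all probes given above. The 0 lower members became 5 after quantile normalization (0.388%, next to 0.506% of all probes) and 1 with values under 5 set to 5 (0.0775%, next to 0.387%). Their count was 3 with the replicate block, 16 without denervated 3 and normal 2, and 0 to 16 without 1 sample. At an adjusted p under 0.05 in limma the 0 members became 0 to 1 without 1 sample, the 1 being XR_147010.1 without denervated 3 (adjusted p = 0.0228). All its values were dim, with 4.56, 4.67 and -0.52 in denervated 1 to 3 and -0.27, -0.47 and -0.33 in normal 1 to 3. The value left out, that of denervated 3, was thus near the normal ones. At an unadjusted p under 0.05 limma gave 16 members, 6 to 72 without 1 sample and 92 without denervated 3 and normal 2, and the Student t test 27. Under these alternatives the shares over all probes were not computed. The 66 members without overlap became 32 among the upper 50%. They became 551 without denervated 3 and normal 2, and 109 to 331 without 1 sample, since fewer samples overlap less often by construction. Again the shares over all probes were not computed for the changed counts.

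The XR median against the other lncRNA probes was -0.276 to -0.257 without 1 sample (exact permutation p = 0.0625, the smallest 5 samples allow), -0.28 without denervated 3 and normal 2, and 0.13 against NR probes alone. The excess in dim share was 0.0 points among the upper 50%, where no class had dim values, 0.674 to 0.931 without 1 sample, 0.651 without denervated 3 and normal 2, and -0.747 against NR probes alone. The excess in SD, 0.036, was -0.014 among the upper 50%, 0.013 without denervated 3 and normal 2, and 0.020 to 0.040 without 1 sample. The group difference of the XR median, -0.019, was 0.017 among the upper 50%, 0.0028 without denervated 1, and -0.031 to 0.0028 without 1 sample. Against the other lncRNA probes this group difference was -0.036, with -0.051 to -0.014 without 1 sample and 0.025 against NR probes alone. Without denervated 3 and normal 2 the 2 values were -0.029 and -0.045. The exact permutation p was 0.67 for each, where 0.33 is the smallest that 2 samples against 2 allow. The causes of these changes were not tested.

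The labels tie no sample to a rat, and the sample numbers were not used as pairs in the main fit. Deviations from the group means had correlations of -0.05, -0.52 and -0.35 between samples of equal number, for numbers 1 to 3. Deviations of 3 samples cancel within a group, and samples of unequal number were not compared. These values therefore cannot show whether samples of equal number came from the same rat. With the number as a replicate block, 11 members were higher, 3 lower and 0 passed the adjusted p, and 14 passed the unadjusted p. The shares over all probes were not computed with the block. Within samples of equal number the group difference of the XR median was -0.019 (exact permutation p = 0.25, the smallest 3 pairs allow). With 3 arrays in a group, and no detection calls, the arrays' number limits the precision and dim values carry little information on level.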

Other observations

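4 probes of another numbering also carry XR names and were left out of the members. Both XR_085691 and XR_086101 are named for the gene LOC365050, with values from 10.46 to 11.95 and from 9.88 to 11.44 on the log2 scale over the 6 samples. Both XR_146999 and XR_146009 are named for LOC366502, with values from 10.29 to 11.48 and from 9.81 to 10.88. The denervated and normal samples overlapped for all 4.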
